A study of Mus musculus with 8 samples.

Results

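Acetylcholine acts in the hippocampus through muscarinic receptors, which signal through G proteins, and through nicotinic receptors, which are ion channels. The genes examined here are the 5 muscarinic receptors (Chrm1 to Chrm5), 3 nicotinic subunits (Chrna4, Chrna7 and Chrnb2) and Ache, the enzyme that breaks the transmitter down. They were chosen by name, and all 9 were found, with 1 probe set each among the 20985 on the array. The arrays held hippocampal RNA of 8 male mice, each 8 weeks old, 4 Kv10.1 -/- knockout and 4 Kv10.1 +/+ wildtype, with 1 animal per array. The labels list no treatment, and neither their strain nor the deleted part of the gene is given in the sources used here. Kv10.1 is a voltage-gated potassium channel of brain, encoded by Kcnh1, and the study set out to characterise mice that lack it. Values are deposited log2 expression levels, and differences are knockout minus wildtype on that scale, so that 1 unit is a doubling of signal.

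As background, muscarinic receptors M1, M3 and M5 couple to Gq and phospholipase C, while M2 and M4 couple to Gi and lower cyclic AMP. The acetylcholine of the hippocampus comes mainly from fibres of the medial septum and diagonal band, whose cell bodies lie outside the tissue. Nicotinic receptors of brain are pentamers, with alpha4 and beta2 subunits forming one main type and alpha7 subunits another, which is rich in hippocampus and passes calcium.

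None of the 9 genes differed between the genotypes at an adjusted p under 0.05 (limma, Benjamini-Hochberg over all probe sets, adjusted p = 0.997 for each), where 0.00477% of all probe sets passed, that is Kcnh1 alone. In all 9 the knockout values overlapped the wildtype values, and 2.16% of all probe sets had groups apart. Of the 9 differences, 5 were above 0 and 4 below it, with a median of 0.005, beside -0.0025 over all probe sets. They ran from -0.26 for Chrna7 to 0.20 for Chrm2. The median size without regard to sign was 0.05 for the 9 genes and 0.065 for all probe sets. Without the array of wildtype 1, which stood apart on the first principal component, again none passed, and the median was 0.03.

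The genotype labels were checked by the targeted gene, and tissue markers, which do not bear on the genotype, were read beside it. Kcnh1 read 8.36, 8.31, 8.43 and 8.29 in the knockouts, against 9.52, 9.35, 9.22 and 9.27 in the wildtype mice (limma adjusted p = 0.00319), and the place of its probes relative to the deletion is unknown here. Array medians lay between 7.5 and 7.55. The granule cell gene Prox1 read 10.19 to 10.81 in knockouts and 10.43 to 10.88 in wildtype mice, and the CA1 gene Mpped1 9.98 to 10.31 in knockouts and 9.92 to 10.28 in wildtype mice. Differences of the 10 dentate granule cell markers were all below 0, with a median of -0.15, and their mean level ran from 8.69 to 8.91 in knockouts and from 8.80 to 9.01 in wildtype mice. All 8 brain vessel markers also had differences below 0, with a median of -0.09 and mean levels of 8.57 to 8.83 in knockouts and 8.73 to 8.94 in wildtype mice. Choroid plexus markers averaged 7.23 to 7.50 in the knockouts, against 8.26 in wildtype 2 and 7.30 to 7.44 in the other wildtype mice, and the brightest, the transthyretin gene Ttr, read 8.51 to 10.01 in the knockouts, against 12.43 in wildtype 2 and 8.88 to 10.16 in the other wildtype mice. The part of these cells in the values below was not tested. On the first principal component (44.2% of the variance) wildtype 1 had the highest score, 32.0, followed by knockout 1 with 14.9. Probe-level files were not used here, so a dim signal could not be told from background. In tissue RNA, fewer cells of a type and less RNA per cell cannot be told apart.

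Where each gene lies, and what lies across it, was read from RefSeq on GRCm38.p6 for chromosome and overlap. Chrm1 is on chromosome 19, Chrm2 on 6, Chrm3 on 13, Chrna7 on 7, Chrnb2 on 3 and Ache on 5, while Chrm4, Chrm5 and Chrna4 are on chromosome 2. None is on chromosome 1, which holds Kcnh1. In that annotation Chrm4 overlaps Mdk, Chrm5 overlaps Aven and Chrnb2 overlaps Adar, and Chrm2, Chrm3 and Ache overlap noncoding genes. The positions of the probes are not given, so signal from an overlapping gene cannot be told apart from that of the named one.

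The bases just before the annotated start are shown for Chrm2, Chrna4 and Chrnb2, whose levels varied together within the genotypes over the 8 arrays. They are also shown for Chrna7, which had the largest difference. Between Chrm2, Chrna4 and Chrnb2, centred on genotype means, Pearson r was 0.85 to 0.86, and 0.59 to 0.65 without wildtype 1. Each stretch is the 250 bases before 1 annotated start, from RefSeq on GRCm38.p6. They are chr6:36387834-36388083 (plus strand) for Chrm2, chr2:181039178-181039427 (minus strand) for Chrna4, chr3:89764633-89764882 (minus strand) for Chrnb2 and chr7:63212527-63212776 (minus strand) for Chrna7. Capitals mark 5 motifs on either strand, which may overlap. The GC box was searched for as the letters GGGCGG and the E-box, a site of helix-loop-helix factors, as the letters CACGTG. The CCAAT box was searched for under its own letters, the TATA box of many tissue-specific genes as the letters TATAAA, and the cyclic AMP response element as the letters TGACGTCA.
Chrm2: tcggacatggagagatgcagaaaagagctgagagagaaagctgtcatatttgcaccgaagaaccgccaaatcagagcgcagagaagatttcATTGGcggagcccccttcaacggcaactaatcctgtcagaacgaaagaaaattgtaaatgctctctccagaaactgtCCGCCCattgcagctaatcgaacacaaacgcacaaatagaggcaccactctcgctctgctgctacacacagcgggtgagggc
Chrna4: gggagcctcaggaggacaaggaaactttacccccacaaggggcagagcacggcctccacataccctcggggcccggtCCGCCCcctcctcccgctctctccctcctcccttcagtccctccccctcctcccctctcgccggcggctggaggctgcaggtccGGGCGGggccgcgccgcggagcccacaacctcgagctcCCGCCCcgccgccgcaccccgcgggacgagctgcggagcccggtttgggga
Chrnb2: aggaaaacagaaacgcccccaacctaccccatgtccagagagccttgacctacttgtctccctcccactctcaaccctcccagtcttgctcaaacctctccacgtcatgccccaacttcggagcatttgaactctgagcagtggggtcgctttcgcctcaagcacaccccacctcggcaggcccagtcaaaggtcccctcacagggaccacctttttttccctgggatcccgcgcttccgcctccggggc
Chrna7: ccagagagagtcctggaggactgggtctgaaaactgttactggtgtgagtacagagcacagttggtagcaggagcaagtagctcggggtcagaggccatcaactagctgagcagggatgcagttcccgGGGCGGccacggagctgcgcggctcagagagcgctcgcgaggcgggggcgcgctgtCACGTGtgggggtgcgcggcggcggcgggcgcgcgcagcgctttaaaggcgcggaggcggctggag
The table holds such a stretch for 8 of the 9 genes. A GC box stood in 5 of those 8 (Chrm2, Chrm4, Chrna4, Chrna7 and Ache), and 32.7% of all 32851 stretches hold one. The E-box letters stood in 2 of 8, Chrna7 and Ache, and 6.02% of all stretches hold them. The CCAAT letters stood in Chrm2 and Chrm4 (33.8% of all stretches), and the TATA and cyclic AMP letters in none of the 8 (12.4% and 1.55% of all). The Chrna4 stretch was 74.4% G or C with 3 GC boxes, while that of its partner Chrnb2 was 59.6% G or C and held none of the 5 motifs. The median over all stretches was 52.4% G or C. A match of letters is a description and does not show a site in use.

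Chrm1 and Chrm3 encode Gq-coupled receptors of pyramidal neurons, and Chrm1 had the smallest difference between the genotypes of the 9 genes. Chrm1 read 9.71, 9.52, 9.60 and 9.72 in the knockouts, against 9.73, 9.60, 9.53 and 9.67 in the wildtype mice. The groups covered nearly the same range, with the lowest value in knockout 2 and the highest in wildtype 1. The difference was 0.005 with a 95% interval from -0.16 to 0.17, which in fold terms is 0.892 to 1.13. Within a genotype its standard deviation was 0.091, and 21.4% of all probe sets had a smaller one, the lowest standing among the 9 genes. With the first component it had r = 0.34 over the 8 arrays, after each value was centred on its genotype mean.

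Chrm3 read 10.12, 9.89 and 9.97 in knockout 1, 2 and 4, with knockout 3 just below knockout 1, against 10.24, 10.04, 9.90 and 9.77 in the wildtype mice. Both extremes were wildtype animals, with the knockouts between them. Knockouts averaged 10.02 ± 0.109 and wildtype mice 9.99 ± 0.201 (SD, n = 4 each), which is a difference of 0.03 with an interval from -0.20 to 0.27. Its sign turned to -0.04 without wildtype 4, and the difference was 0.12 without wildtype 1.

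Chrm5, the Gq-coupled receptor best known from dopamine neurons of the midbrain, read 7.96, 7.74, 7.72 and 7.69 in the knockouts, against 7.63, 7.91, 7.98 and 7.55 in the wildtype mice. Here the wildtype mice fell into 2 above and 2 below 3 of the knockouts, and wildtype 1 was among the low ones, unlike for most of the genes. The difference was 0.01 with an interval from -0.23 to 0.25. Of the 9 genes it was the one with the dimmest probe set, with 55.4% of all probe sets dimmer, while 91.9% were dimmer than that of Chrm3. Brightness depends on the probes, so the genes are not ranked by it.

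**Figure D1:**
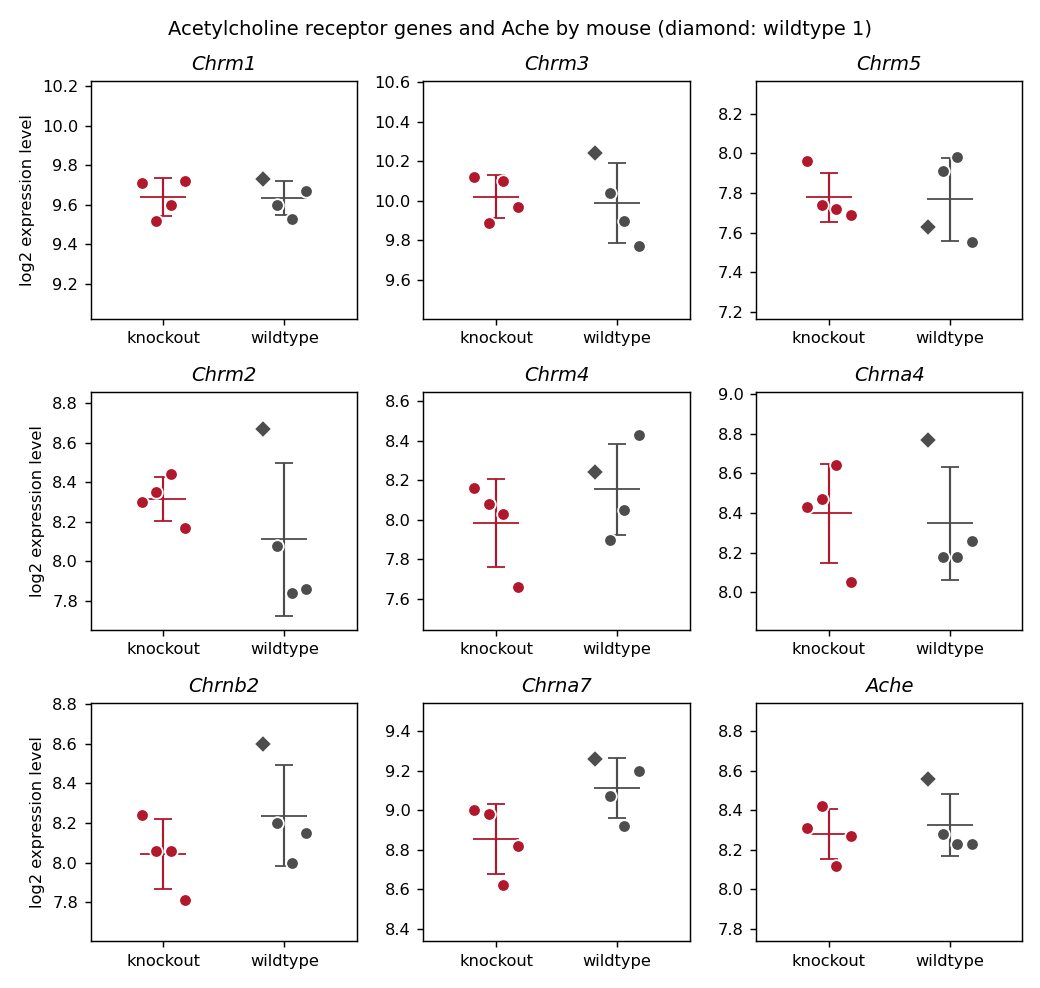
Deposited log2 expression level of each gene by genotype, knockout on the left and wildtype on the right, 1 point per mouse (n = 4 each), with bars for the mean and SD. Every panel spans the same number of log2 units. The diamond is wildtype 1, which was the highest of the 8 mice in 7 of the 9 genes and in 22.6% of all probe sets.

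Chrm2 encodes the M2 receptor, which in hippocampus sits largely on interneurons and on cholinergic terminals, where it restrains release. It read 8.30, 8.35, 8.44 and 8.17 in the knockouts, against 8.67, 8.08, 7.84 and 7.86 in the wildtype mice. Wildtype 1 was above every knockout, and wildtype 2, 3 and 4 were below every knockout. Knockouts averaged 8.32 ± 0.113 and wildtype mice 8.11 ± 0.387 (SD, n = 4 each), which is a difference of 0.20 with a standard error of 0.164 and an interval from -0.16 to 0.57.

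Leaving out wildtype 1 raised the Chrm2 difference, and moved it more than that of any other of the 9 genes. Without that mouse it was 0.39 ± 0.091 (SE) and the groups did not overlap, with knockouts at 8.17 to 8.44 and the other 3 wildtype mice at 7.84 to 8.08. The adjusted p was 0.998 by limma even so. Chrm2 was the only one of the 9 with an unadjusted p under 0.05 in that fit (limma, 0.00163), where 3.09% of all probe sets were under 0.05 and 1.5% were so and higher in knockouts. Chrm2 was then 1 of 377 probe sets, 1.8% of all, that were higher in every knockout than in these 3 wildtype mice, and the only one of the 9 genes with groups apart in either direction, against 4.11% of all probe sets. Within the lower series of mouse numbers (knockout 1 against wildtype 1, 2 and 3) the difference was 0.10, and within the higher series (knockout 2, 3 and 4 against wildtype 4) it was 0.46. What the 2 series of numbers stand for is not given, and each leaves a genotype with 1 mouse.

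Interneuron markers are the values to set beside Chrm2. The mean log2 level of 15 such genes ran from 9.18 to 9.45 in knockouts and from 9.19 to 9.36 in wildtype mice. Of the 15 differences 7 were below 0, with a median of 0.03, and none passed. The brightest was Cck, the cholecystokinin gene, at 12.51, 11.99, 11.73 and 11.76 in the knockouts, against 12.31, 11.67, 11.92 and 11.72 in the wildtype mice. The somatostatin gene Sst read 11.74, 11.74, 11.94 and 12.29 in the knockouts, against 11.51, 11.68, 11.34 and 12.10 in the wildtype mice. The GABA genes Gad1, Gad2 and Slc32a1 had differences of 0.26, 0.205 and 0.16. Nos1, the neuronal nitric oxide synthase gene, ran the other way, at 8.64 to 8.96 in the knockouts and 8.99 to 9.13 in the wildtype mice, a difference of -0.24 (limma adjusted p = 0.997). Its groups did not overlap, as in 2.16% of all probe sets. In 4 of the 15 wildtype 1 was the highest mouse, as it was for Chrm2 and for 22.6% of all probe sets. Among them were Lamp5, at 9.16 to 9.53 in the knockouts, against 10.38 in wildtype 1 and 8.94 to 9.34 in the other wildtype mice, and Pvalb, at 7.70 to 7.86 in the knockouts, against 8.85 in wildtype 1 and 7.6 to 7.77 in the others. Lamp5 is also on the list of neocortex and subiculum markers. The mean of that list was 9.18 in wildtype 1, against 8.79 to 9.10 in the other 7 mice. Wildtype 1 was highest for 2 of its 9 genes. The part of interneurons, or of neocortex and subiculum, in the Chrm2 values was not tested.

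Chrm4 encodes the Gi-coupled M4 receptor, which is richest in striatum and is also found on hippocampal terminals. It read 8.16, 8.08, 8.03 and 7.66 in the knockouts, against 8.24, 7.90, 8.05 and 8.43 in the wildtype mice. Knockout 4 gave the lowest value and wildtype 4 the highest, while the other 6 mice lay together between 7.90 and 8.24. The difference was -0.17 ± 0.135 (SE) with an interval from -0.47 to 0.13, and it was -0.07 without knockout 4 and -0.08 without wildtype 4. Within the lower series of mouse numbers it was 0.10 and within the higher series -0.51, so the sign was not shared. Markers of striatum averaged 8.17 to 8.32 in knockouts and 8.11 to 8.33 in wildtype mice over 6 genes.

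Chrna7, the gene of the alpha7 subunit, had the largest difference of the 9 genes. It read 9.0, 8.98, 8.62 and 8.82 in the knockouts, against 9.26, 9.07, 8.92 and 9.20 in the wildtype mice. Wildtype 3, at 8.92, was the one wildtype mouse within the knockout range, and wildtype 1, 2 and 4 were above all knockouts. Knockouts averaged 8.86 ± 0.176 and wildtype mice 9.11 ± 0.151 (SD, n = 4 each), which is a difference of -0.26 ± 0.106 (SE), or a 1.2-fold lower signal, with an interval from -0.49 to -0.02.

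This difference did not pass over all genes (limma adjusted p = 0.997). Its unadjusted p was 0.0344, the only one of the 9 genes under 0.05, where 3.16% of all probe sets were under 0.05 and 1.53% were so and lower in knockouts. Permuting the genotypes exactly, over all 35 splits, gave a two-sided p of 0.0857, where 0.0286 is the smallest possible. Its sign was negative with any 1 mouse left out, from -0.32 without wildtype 3 to -0.18 without knockout 3. It was -0.08 within the lower series of mouse numbers and -0.39 within the higher. Without wildtype 1 the difference was -0.21 and the unadjusted p 0.0828.

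Chrna4 and Chrnb2 encode the partners of the main heteromeric nicotinic receptor of brain. Chrna4 read 8.43, 8.47, 8.64 and 8.05 in the knockouts, against 8.77, 8.18, 8.18 and 8.26 in the wildtype mice. Wildtype 2, 3 and 4 lay close together with wildtype 1 well above them, while the knockouts were spread on both sides of those 3. The difference was 0.05 ± 0.155 (SE) with an interval from -0.29 to 0.39, and it was 0.19 without wildtype 1 and -0.03 without knockout 3. Its standard deviation within a genotype was 0.267, and 92.8% of all probe sets had a smaller one.

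Chrnb2 read 8.24, 8.06, 8.06 and 7.81 in the knockouts, against 8.60, 8.20, 8.00 and 8.15 in the wildtype mice. Wildtype 1 was again the highest and knockout 4 the lowest, and the other 6 mice lay between 8.00 and 8.24. The difference was -0.20 ± 0.132 (SE) with an interval from -0.49 to 0.10, and it was -0.07 without wildtype 1. The 2 partner genes thus had differences of opposite sign, but whether they differed from each other was not tested.

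Ache, the acetylcholinesterase gene, read 8.31, 8.42, 8.12 and 8.27 in the knockouts, against 8.56, 8.28, 8.23 and 8.23 in the wildtype mice. Apart from wildtype 1, the highest of the 8, the wildtype mice lay close together and inside the knockout range. The difference was -0.045 with an interval from -0.26 to 0.17, and it was 0.03 without wildtype 1.

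**Figure D2:**
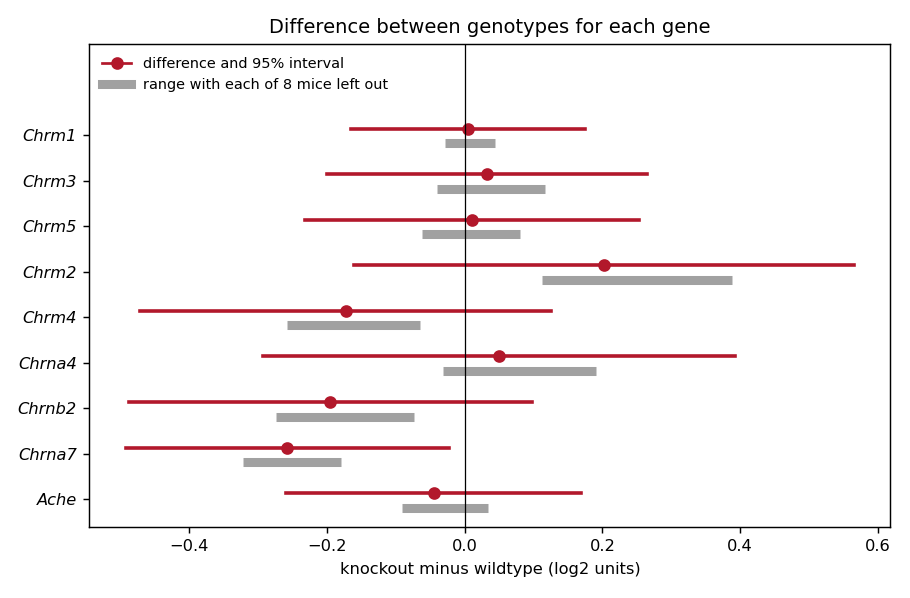
Knockout minus wildtype in log2 units for each gene. The red point and line give the difference and its 95% interval from limma, and the grey bar gives the range of the difference with each of the 8 mice left out in turn. Only the interval of Chrna7, from -0.49 to -0.02, leaves out 0, with no adjustment for the number of genes tested, and the bars of Chrm2, Chrm4, Chrnb2 and Chrna7 stay on one side of 0.

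Across mice, 7 of the 9 genes were highest in wildtype 1, all but Chrm4 and Chrm5, while 22.6% of all probe sets were highest in that mouse. Of the 58 other pathway genes described below, 41.4% were highest in it. By list this share was 60% for synthesis, transport and breakdown and 52.2% for muscarinic signalling. It was 30.8% for the other nicotinic subunits and 16.7% for assembly and modulators. Above the median of the other 7 mice, wildtype 1 stood by 0.54 for Chrnb2, 0.51 for Chrna4 and 0.50 for Chrm2, and by 0.13 for Chrm1. After each value was centred on its genotype mean, Chrm2, Chrna4 and Chrnb2 varied together over the 8 arrays, with Pearson r of 0.86 for Chrm2 with Chrnb2, 0.86 for Chrm2 with Chrna4 and 0.85 for Chrna4 with Chrnb2. Of the 36 pairs, 4 were above 0.8, the other being Chrm2 with Chrm3 at 0.83. Without centring, 2 of the 36 were above 0.8, Chrm2 with Chrna4 at 0.83 and Chrm2 with Chrm3 at 0.80, while Chrna4 with Chrnb2 was at 0.70 and Chrm2 with Chrnb2 at 0.54. Centred and without wildtype 1, over 7 arrays, r was 0.59 for Chrm2 with Chrnb2, 0.65 for Chrm2 with Chrna4, 0.64 for Chrna4 with Chrnb2 and 0.57 for Chrm2 with Chrm3. Chrna7 with Ache, centred, was at 0.76 with that mouse and 0.76 without it. These correlations describe 8 arrays that share the same first component, with which Chrnb2 had r = 0.89, Ache 0.81 and Chrm2 0.78.

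The genes whose pattern over the 8 arrays was most like each of the 9 were sought among named probe sets above the median brightness, by the same centred correlation. For Chrnb2 they were Raly (0.997), Ppp1r37 (0.994) and Slc27a4 (0.991), and for Chrna4 Mtcl1 (0.986), Csrp1 (0.981) and Sorcs1 (0.98). For Chrm2 they were Itih3 (0.989), Man2a1 (0.986) and Twf2 (0.984), and each of these was between 0.90 and 0.93 without wildtype 1. The closest to Chrna7 were Uck1 (0.954), Xab2 (0.952) and Vstm2b (0.949), and to Ache Tmeff2 (0.978), Btbd10 (0.965) and Slc16a1 (0.964). For the other muscarinic genes they were Prelid1, Fbxw4 and Akirin1 (Chrm1, r up to 0.977), Ubac2, Orc2 and Ptcd3 (Chrm3, up to 0.977), Mfsd10, Atg7 and Bag5 (Chrm4, up to 0.964) and Pik3cb, Gm7868 and Mmgt1 (Chrm5, up to 0.967). With so many probe sets searched over 8 arrays, values of this size are a description only.

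The other nicotinic subunit genes were measured by dimmer probe sets, 12 of 13 below the median one. None passed in either direction, 9 differences were above 0 and 4 below, and the median was 0.05, or 0.02 without wildtype 1. Chrna3, a subunit of ganglia and of the medial habenula, read 6.74, 6.88, 6.89 and 6.68 in the knockouts, against 8.11, 6.72, 6.72 and 6.71 in the wildtype mice. A single mouse, wildtype 1, thus stood more than a unit above the other 7, which all lay between 6.68 and 6.89. Chrnb4, its usual partner, read 7.06, 7.04, 7.35 and 6.95 in the knockouts, against 7.77, 6.93, 7.11 and 7.32 in the wildtype mice. The difference of Chrna3 was -0.27 with that mouse and 0.08 without it, and that of Chrnb4 -0.18 and -0.02.

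Markers of the medial habenula, a nucleus near the hippocampus that is rich in nicotinic receptors, were also high in wildtype 1. Differences of all 9 listed markers, Chrna3 and Chrnb4 among them, were below 0, with a median of -0.235. Without wildtype 1 the difference of Chrna3 was 0.08 and that of Chrnb4 -0.02. Means in knockouts and in wildtype 2 to 4 were 7.58 and 7.86 for Calb2, 6.92 and 7.08 for Gng8. They were 6.53 and 6.66 for Gpr151, 5.925 and 5.99 for Pou4f1, and 6.795 and 6.82 for Tac2. For Nwd2 they were 9.14 and 9.17, and for Irx2 7.07 and 7.09. Over 7 of the 9 markers, leaving out Chrna3 and Chrnb4, the mean log2 level was 7.10 to 7.16 in the knockouts. It was 7.87 in wildtype 1 and 7.17 to 7.34 in wildtype 2, 3 and 4. The lowest wildtype mean, 7.171, was thus just above the highest knockout mean, 7.164. Over all 9 markers the groups overlapped, with means of 7.07 to 7.12 in the knockouts and 7.09 in wildtype 2. For each of the 7 genes alone the groups overlapped as well. Tac2, the neurokinin B gene, read 6.82, 6.82, 6.78 and 6.76 in the knockouts, against 8.66, 6.64, 6.81 and 7.02 in the wildtype mice. Gpr151, an orphan receptor gene, read 6.37 to 6.62 in the knockouts, against 7.09 in wildtype 1 and 6.58 to 6.81 in the other wildtype mice. Of the 7 genes, 6 were highest in wildtype 1. The exception was Gng8, at 7.43 in wildtype 1 and 7.63 in wildtype 4. Slc17a6, a glutamate transporter gene of thalamus and habenula, read 7.88, 8.46, 8.86 and 7.47 in the knockouts, against 9.17, 7.55, 7.34 and 7.41 in the wildtype mice, so that it was high in knockout 2 and 3 as well. Over 8 thalamus markers, Slc17a6 among them, the mean was 8.66 in knockout 3 and 8.53 in wildtype 1, against 8.09 to 8.28 in the other mice. Of the 8 differences 4 were below 0. The part of such tissue in the values of Chrna4, Chrnb2 and Chrm2 was not tested, and each is given above without wildtype 1. Without knockout 3 the differences were -0.03 for Chrna4, -0.20 for Chrnb2 and 0.16 for Chrm2.

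**Figure D3:**
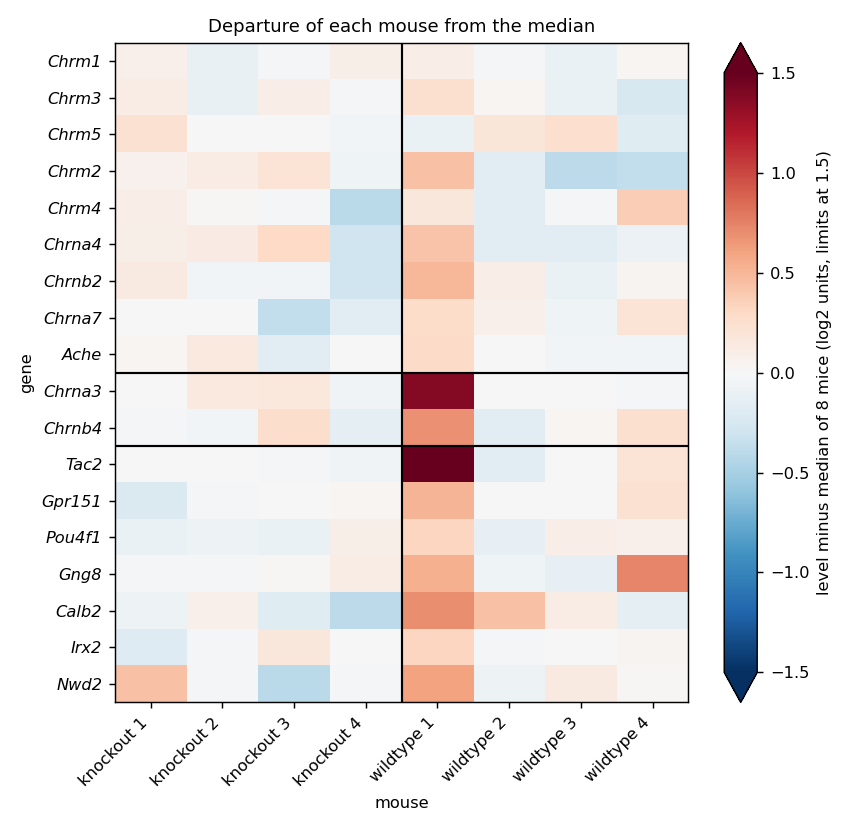
Level of each gene in each mouse minus the median of the 8 mice, in log2 units, with knockouts left of wildtype mice. The rows from the top are the 9 genes, then Chrna3 and Chrnb4, then 7 markers of the medial habenula. The column of wildtype 1 is high in most rows, and most of all for Tac2 (8.66) and Chrna3 (8.11), where the other 7 mice lie close together.

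Chrna5, the accessory subunit, did not share that pattern. Its gene overlaps Chrna3 in the annotation and lies near Chrnb4. Probe positions are not given, so signal from the overlapping gene cannot be told apart. Chrna5 read 7.63, 7.93, 7.89 and 7.61 in the knockouts, against 7.48, 7.54, 7.53 and 7.89 in the wildtype mice. Wildtype 4 was the high one among wildtype mice, and wildtype 1 had the lowest value of all 8. Its difference was 0.15 ± 0.113 (SE), or 0.25 without wildtype 4. Chrnb3 had 0.05, Chrna10 0.12 and the muscle subunit gene Chrnb1 -0.14, none of which passed.

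Among 12 genes that help nicotinic receptors to assemble or modulate them, none passed, with 8 differences above 0, 3 below and 1 at 0, and a median of 0.06 (-0.00083 without wildtype 1). Lynx1, the prototoxin that restrains nicotinic receptors, read 10.04, 10.18, 10.07 and 10.40 in the knockouts, against 10.56, 10.52, 10.01 and 10.28 in the wildtype mice. The lowest and the highest value were both of wildtype mice. Its difference was -0.17 ± 0.129 (SE), or -0.10 without wildtype 1 and -0.11 without wildtype 2. The chaperone genes of alpha7 receptors gave -0.06 for Ric3 and 0.04 for Tmem35a, which encodes NACHO. Lypd6 gave 0.13, or 0.02 without knockout 1, which read 8.21 against 7.71 to 7.82 in the other 7 mice. Musk and Rapsn, known from the muscle synapse, gave 0.16 and 0.14.

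Genes of acetylcholine synthesis, transport and breakdown did not pass either, with 4 of 10 differences above 0 and 6 below, and a median of -0.02 (0.07 without wildtype 1). Chat, which makes acetylcholine, was measured by a dim probe set at 6.43, 6.38, 6.35 and 6.28 in the knockouts, against 6.52, 6.36, 6.39 and 6.24 in the wildtype mice. The vesicular transporter gene Slc18a3, which lies within the Chat gene, had a difference of 0.03. The choline transporter gene Slc5a7 read 6.67, 6.73, 6.99 and 6.50 in the knockouts, against 7.46, 6.69, 6.58 and 6.53 in the wildtype mice. It too was highest in wildtype 1, and its difference of -0.09 was 0.12 without that mouse. Bche, the related cholinesterase of glia and plasma, read 6.63, 7.32, 6.98 and 7.31 in the knockouts, against 6.49, 7.36, 7.28 and 7.35 in the wildtype mice. Both arrays with the highest scores on the first component, wildtype 1 and knockout 1, held its lowest values. Prima1, which anchors acetylcholinesterase in the membrane, had a difference of 0.11, Colq, which anchors it in muscle, 0.085, and Pcyt1a, of choline lipid synthesis, -0.05. Markers of the septal neurons that send the fibres were dim, and their mean over 8 genes ran from 6.75 to 6.99 in knockouts and 6.76 to 6.89 in wildtype mice.

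Downstream of the muscarinic receptors, 23 of 27 listed genes were measured and none passed, with 12 differences above 0, 10 below and 1 at 0, and a median of 0.01 (0.04 without wildtype 1). Adcy1, a calmodulin-stimulated adenylyl cyclase, read 10.88, 10.95, 11.30 and 11.08 in the knockouts, against 11.84, 11.09, 11.25 and 11.20 in the wildtype mice. Wildtype 1 was the highest and 3 of the knockouts were below every wildtype mouse. Its difference of -0.29 ± 0.157 (SE) was -0.13 without wildtype 1. Gna11, which encodes a Gq-class subunit, gave -0.21 (-0.06 without knockout 4), and Kcnq3, a channel that muscarinic signalling closes, gave -0.12 ± 0.071 (SE). Grk5, a receptor kinase, gave 0.14, or 0.06 without knockout 3. Over the 58 measured genes of these 4 lists, 33 differences were above 0, 23 below and 2 at 0, with a median of 0.02. By limma 0 passed at an adjusted p under 0.05. At an unadjusted p under 0.05 there were also 0, beside 3.16% of all probe sets.

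**Figure D4:**
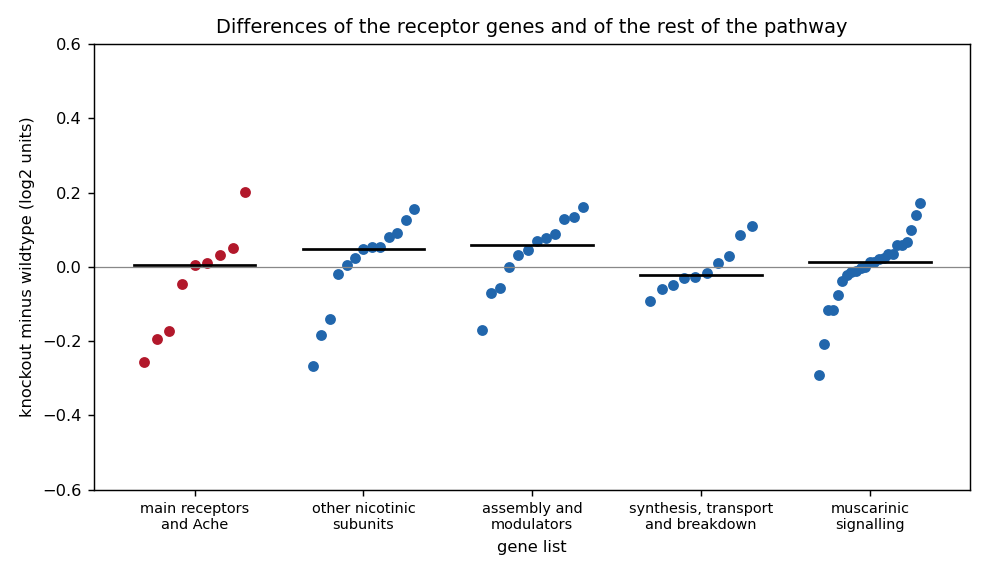
Knockout minus wildtype in log2 units for each gene (points) of the 9 genes and of the 4 lists of the rest of the pathway, sorted within each list, with a line at the median. All points lie between -0.29 and 0.20, and the medians between -0.02 and 0.06.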

How the data were processed

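Hippocampal RNA of 8 mice was measured on Affymetrix arrays. Per probe set, the authors deposited a log2 level, made with R 2.9, limma and RMA per the submitters' processing notes, with order and settings not given in the sources used here. Genotype came from the titles, and replicate numbers follow the records and pair nothing. The platform table named 19921 of 20985 probe sets, none with several names. All probe sets were fitted with limma 3.58.1 in R 4.3.3 (lmFit, eBayes, two-sided, genotype as the single factor), with Benjamini-Hochberg adjustment and a threshold of 0.05, and the fit was tested on simulated data. Exact permutation tests used scipy 1.17.1. The number of arrays limits precision: the standard error of a difference had a median of 0.0922. Of 62 listed pathway genes 58 were matched.

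The rule for named genes took the 9 genes, Kcnh1, up to 4 genes per pathway list by smallest p, 12 genes by role, the 3 nearest patterns per gene and the brightest markers. Nos1, Lamp5, Pvalb, Gad1, Gad2, Slc32a1, Gpr151, Gng8, Tac2, Slc17a6 and Tatdn3 were named after their values were seen. The 9 genes and all lists were chosen with earlier results of these data known. Alternatives were array weights, quantile normalization again, centring on medians, eBayes with a trend or robust, leaving out dim probe sets (25% or 50%), a block for mouse number series, a first component covariate, and leaving out each mouse or both outlying arrays.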

Additional observations from a re-analysis of the deposited data

Results flagged for a closer look

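In 33 genes, each genotype's 4 values were searched for 1 mouse far from the other 3, by its gap to the nearest divided by the whole range, against Dixon's 95% critical value for 4 values. Such a mouse was found in 6 of 66 groups, where chance gives about 1 in 20 and the same search over all probe sets gave 6.33% of 41970 groups. In 5 of the 6 it was wildtype 1, as in 35.5% of those found over all probe sets. Some of the 33 genes were chosen by their p and wildtype 1 stood apart over the whole array, so these counts cannot be read as a trait of the genes. It was high for Chrna4 (ratio 0.864, at 8.77 against 8.18 to 8.26 in the other wildtype mice), for Ache (0.848, at 8.56 against 8.23 to 8.28) and for Chrna3 (0.993, at 8.11 against 6.71 to 6.72). It was low for Chrna10 (0.875, at 6.18 against 6.39 to 6.42) and for Bche (0.908, at 6.49 against 7.28 to 7.36). The sixth was wildtype 4 for Chrna5 (0.854, at 7.89 against 7.48 to 7.54).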

How the results depend on the processing

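Under none of 18 alternatives did any of the 9 genes or of the other 58 pathway genes pass (lowest limma adjusted p 0.775 and 0.767, both with a first component covariate), and Kcnh1 passed under all 18. The count over all probe sets was 2 in place of 1, with Tatdn3 added, with array weights, with quantile normalization repeated and with a first component covariate. The signs of Chrm2, Chrm4, Chrna7 and Chrnb2 held in all 18, and the unadjusted p of Chrna7 ran from 0.0152 to 0.163 and that of Chrm2 from 0.00163 to 0.528. With array weights Chrm1 turned to -0.0038, Chrm5 to -0.10, Ache to 0.063, Slc5a7 to 0.062, Chat to 0.00448 and Chrna3 to 0.020. Without both wildtype 1 and knockout 1, Chrm5 turned to -0.10, Ache to 0.023, Slc5a7 to 0.14, Chat to 0.0067 and Chrna3 to 0.10. With the mouse number series as a block, Colq turned to -0.027, Pcyt1a to 0.060, Chat to 0.052 and Ric3 to 0.072, and with a first component covariate Chat turned to 0.013. With single mice left out, differences ran from -0.029 to 0.044 for Chrm1, -0.040 to 0.12 for Chrm3, -0.062 to 0.081 for Chrm5, -0.031 to 0.19 for Chrna4, -0.092 to 0.033 for Ache, -0.19 to 0.12 for Slc5a7, -0.14 to 0.011 for Pcyt1a, -0.063 to 0.030 for Chat, -0.079 to 0.13 for Slc18a3, -0.39 to 0.081 for Chrna3, -0.027 to 0.17 for Chrnb3, -0.062 to 0.16 for Tmem35a and -0.27 to 0.083 for Bche. The cause of these changes was not tested. No paired analysis was possible because the replicate numbers pair no samples. With 4 mice a group, an interval such as that of Chrm4 (-0.47 to 0.13) leaves room for differences of either sign.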
